A study of Arabidopsis thaliana with 12 samples.

Results

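In leaves of the Arabidopsis thaliana mutant ptpkis2, 95 of the 22810 probe sets of the array differed from wild type at the end of the night while the related mutants sex1-3 and sex4-3 stayed close to wild type. Of these 95, 25 were higher and 70 were lower in ptpkis2, and they are kept apart throughout. They were chosen from the measured values by a fixed rule on log2 signal over 11 arrays. The mean had to be at least 6, and the ptpkis2 mean had to lie at least 0.7 (1.62-fold) from the Col-WT mean. The means of sex1-3 and of sex4-3 had to lie within 0.4 of the Col-WT mean. All 3 ptpkis2 values had to lie above, or all below, the other 8. Ribosomal protein genes, TBL26 and the Affymetrix controls were left out. Every difference between genotypes that the rule used is therefore given as a description, with no test.

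The study hybridised leaf RNA of 4 genotypes to the ATH1 array, which reads each transcript, or small group of transcripts, with 1 probe set, and each genotype had 3 arrays. The mutants were ptpkis2 (line Salk_053285), sex1-3 (an induced mutation in the Col-0 background) and sex4-3 (line Salk_102567), and the wild type was Columbia (Col-WT, strain Col0), so each genotype is a single line. All plants shared days of 12 hours of light at 100 micromol per square metre per second, a temperature of 20 degrees Celsius and developmental stage 3.70. Leaves of 8 plants per genotype were taken in darkness, 0.5 hours ahead of the light period, and frozen. The labels do not say whether replicate arrays came from separate plants, so the spread between them may be technical.

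Plant leaves store part of the day's carbon as starch in the chloroplast and break it down at night to feed the plant with sugar. SEX1, glucan water dikinase, adds phosphate to starch and opens its surface to amylases, and the phosphatase SEX4 removes this phosphate again. PTPKIS2, also known as LSF1, resembles SEX4, binds starch, and is thought to act without phosphatase activity of its own, by bringing amylases to the granule. Mutants of all these genes are known for leaf starch that is not used up by dawn.

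On 11 of the 12 arrays the median signal, in MAS5 units on a linear scale, was 24 to 29.7, and these arrays correlated with one another at 0.891 to 0.93 across probe sets. Col-WT replicate 2 had a median of 62.2 and correlated with the others at 0.586 to 0.604. The rule leaves this array out, so Col-WT rests on 2 arrays, and its value is printed beside each member whose signals are given below. RCA, the Rubisco activase of mesophyll chloroplasts, had 5870 to 12698 units on all arrays, and the root gene PYK10 had 0.51 to 10.6. Of 20 cell type markers 4 were measured; the others were the guard cell gene FAMA (30 to 56.2, and 6.03 on Col-WT replicate 2) and the root hair gene EXPA7 (1.49 to 16.4, and 147 on Col-WT replicate 2). In whole leaves, fewer cells of a type and less RNA per cell cannot be told apart. The targeted gene of ptpkis2 had no probe set named for it in the tables used here, so the label was not checked by it.

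Of 7740 probe sets with a mean log2 signal of at least 6, all ptpkis2 values lay above the other 8 in 466 (6.02%) and below them in 660 (8.53%). A difference of at least 0.7 from Col-WT was held by 114 of the first and 217 of the second. Of these, 33 and 70 also had sex1-3 and sex4-3 within 0.4 of Col-WT. Of the 33, 8 probe sets of ribosomal proteins, higher in ptpkis2 by 0.71 to 0.92 on the log2 scale, were then removed, and TBL26 did not meet the other conditions. A limma fit over all genotypes and 13647 probe sets called 369 between ptpkis2 and Col-WT (2.7%), 114 higher (0.835%) and 255 lower (1.87%). The split was 83 higher and 373 lower after median centring of each array, and 74 higher and 77 lower without Col-WT replicate 3. Of the members, 10 of the 25 higher and 51 of the 70 lower ones were among the 369. Since the rule used the same contrast, nothing is read from these counts.

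Differences of the members were small, with fold changes of 1.64 to 2.31 (median 1.77) among the 25 higher members and 1.63 to 3.16 (median 1.75) among the 70 lower ones. The gap between the nearest ptpkis2 array and the nearest of the other 8 arrays used had a median of 0.23 on the log2 scale among the higher members and 0.30 among the lower. It was as small as 0.002 and 0.0006, so the least separated members have no clear space between the genotypes. Just inside the bound of 0.7 lay 2 higher probe sets at 0.71 and 0.72, and just outside were AT5G61240 at 0.68 and a probe set unnamed here at 0.69. Among the lower ones AT4G01330 (-0.704) and AT4G19390 (-0.706) lay just inside, and AT5G53050 (-0.697) and an unnamed probe set (-0.695) just outside.

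**Figure D1:**
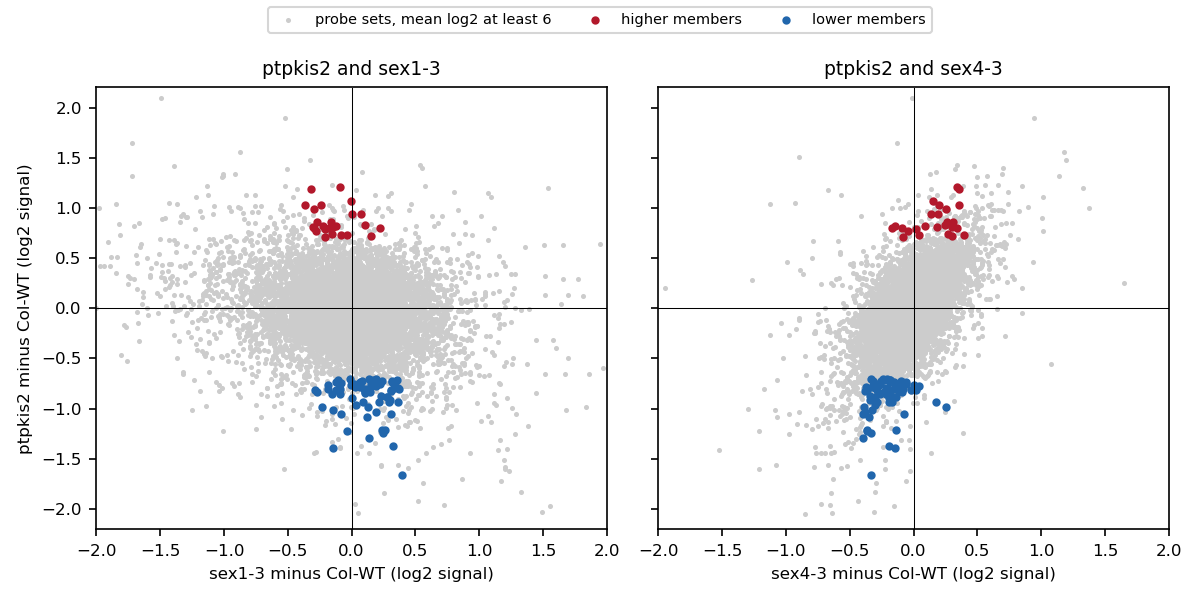
Each dot is a probe set with a mean log2 signal of at least 6. The vertical axis is ptpkis2 minus Col-WT, and the horizontal axis is sex1-3 minus Col-WT (left) or sex4-3 minus Col-WT (right), in log2 signal; 12 probe sets exceed the vertical limits, 55 the left and 1 the right horizontal limits, and all comparisons share the Col-WT arrays. The 25 higher members (red) and 70 lower members (blue) form bands beyond 0.7 on the vertical axis; in the right panel most red dots lie right of 0 and most blue dots left of it.

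The tables pair 10 of the 25 higher members with 1 gene each, and 15 are unnamed here, among which ribosomal protein genes cannot be told apart. These 15 are 60% of the higher members, beside 46.9% unnamed among the 7740 probe sets with a mean log2 of at least 6. Among the 10 named genes, glycolysis, protein folding, secretion, mitochondrial respiration, jasmonate synthesis and carbon fixation have 1 gene each. The others fall outside these. Where a locus carries no symbol, the family given is general knowledge of that locus and not from the tables.

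Among metabolic genes, AT1G20950, the alpha subunit of the pyrophosphate-dependent phosphofructokinase of cytosolic glycolysis, had signals of 200.05, 217 and 268 in ptpkis2, 92.8, 119 and 75.2 in sex1-3, 151, 146 and 129.9 in sex4-3, and 116 and 107 in Col-WT, with 4.55 on Col-WT replicate 2. Leaving replicate 2 of Col-WT aside, every ptpkis2 array stood clear of the rest, and the ptpkis2 mean was 2.04-fold that of Col-WT (log2 1.03 ± 0.18; here and below, for members, ± gives the SD pooled over the 3 ptpkis2 and 2 Col-WT arrays). IDH-VI (AT3G09810), a catalytic subunit of the mitochondrial NAD-dependent isocitrate dehydrogenase, read 151, 157 and 131 in ptpkis2, 71.8, 74.3 and 89.6 in sex1-3, 78.3, 116 and 127 in sex4-3, and 79.0 and 96.3 in Col-WT, with 87.9 on Col-WT replicate 2. The gap to the highest sex4-3 array was narrow (0.04 on the log2 scale), and the difference from Col-WT was 0.74 ± 0.16. OPCL1 (AT1G20510), a CoA ligase of jasmonate synthesis in the peroxisome, gave 122, 115 and 170.2 in ptpkis2, 68.1, 49.5 and 72.6 in sex1-3, 49.5, 72.8 and 103 in sex4-3, and 52.2 and 113 in Col-WT, with 163 on Col-WT replicate 2. Its lowest ptpkis2 array barely exceeded the higher of the Col-WT arrays used (gap 0.03), which differed widely from each other, and Col-WT replicate 2 lay inside the ptpkis2 range. The difference of 0.80 ± 0.52 is therefore poorly set.

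Genes of protein folding, secretion and RNA binding were also present. AT4G16660, a member of the HSP70 chaperone family, had 153, 144 and 106 in ptpkis2, 88.2, 50.9 and 86.6 in sex1-3, 67.5, 76.6 and 85.0 in sex4-3, and 65.0 and 73.9 in Col-WT, with 17.7 on Col-WT replicate 2, a difference from Col-WT of 0.94 ± 0.25 (1.91-fold). AT3G60540, a beta subunit of the Sec61 channel that passes proteins into the endoplasmic reticulum, read 119.7, 120.00 and 91.8 in ptpkis2, 48.8, 59.7 and 57.3 in sex1-3, 51.1, 76.2 and 69.1 in sex4-3, and 56.5 and 71.5 in Col-WT, with 108 on Col-WT replicate 2. In both genes the third ptpkis2 array was the lowest of its genotype and still above all sex1-3 and sex4-3 arrays. AT1G20220, of the Alba family of nucleic acid binding proteins, had 105, 159 and 98.3 in ptpkis2, 64.2, 73.1 and 63.7 in sex1-3, 64.6, 77.8 and 78.2 in sex4-3, and 87.8 and 57.4 in Col-WT, with 103 on Col-WT replicate 2. Replicate 2 of ptpkis2 was well above its own replicates, which were closer to the higher of the Col-WT arrays used than to it. In AT1G20220 and AT3G60540 Col-WT replicate 2 lay inside the ptpkis2 range.

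The remaining named genes were GLR1.4, AT3G07090, AT2G34300 and rbcL. GLR1.4 (AT3G07520), of the glutamate receptor-like channel family, had 78.5, 115 and 145 in ptpkis2, 53.5, 48.7 and 69.6 in sex1-3, 41.7, 54.8 and 75.5 in sex4-3, and 58.9 and 64.6 in Col-WT, with 4.66 on Col-WT replicate 2, and its ptpkis2 arrays had the widest spread of any higher member (SD 0.45 on the log2 scale). AT3G07090 had 197, 209 and 157 in ptpkis2, 105, 75.4 and 117 in sex1-3, 88.2, 112 and 139 in sex4-3, and 92.8 and 102 in Col-WT, with 169 on Col-WT replicate 2, and AT2G34300 had 118, 106 and 99.8 in ptpkis2, 64.7, 31.7 and 57.8 in sex1-3, 68.9, 71.3 and 80.7 in sex4-3, and 61.3 and 57.1 in Col-WT, with 85.7 on Col-WT replicate 2. Both were separated from the other 8 arrays used by modest gaps (0.18 and 0.31 on the log2 scale). In AT3G07090 Col-WT replicate 2 lay inside the ptpkis2 range. The plastid gene rbcL, which encodes the large subunit of Rubisco, was the only named member from the chloroplast genome, with 1039, 1071 and 1137 in ptpkis2, 617, 442 and 522 in sex1-3, 935, 416 and 600.2 in sex4-3, and 806 and 500.3 in Col-WT, with 962 on Col-WT replicate 2. The ptpkis2 arrays were close together, whereas among the other 8 arrays used sex4-3 and Col-WT each held 1 not far below them (gap 0.15).

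**Figure D2:**
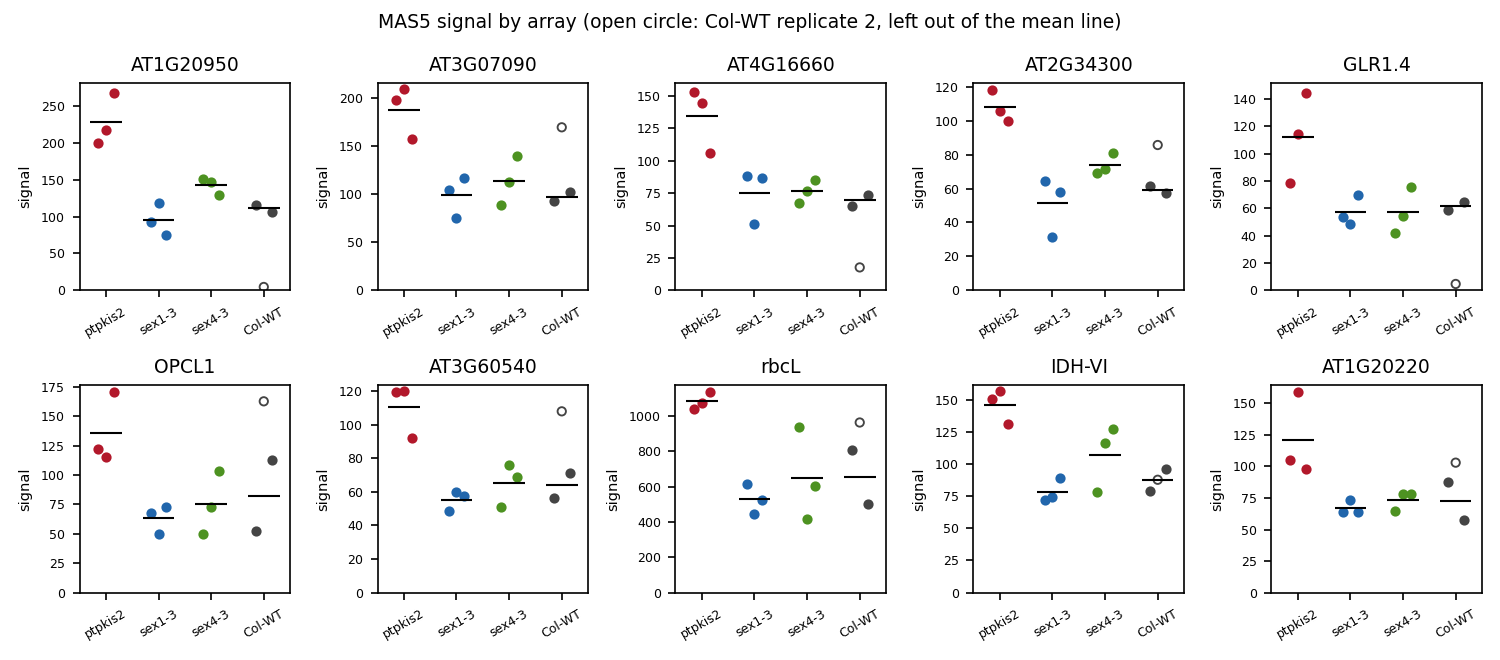
MAS5 signal (vertical axis, linear, from 0) by genotype (horizontal axis) for the 10 higher members paired with 1 gene; each circle is an array, the line is the genotype mean, and the open circle is Col-WT replicate 2, which the mean leaves out. Filled ptpkis2 circles lie above all other filled circles in every panel, with OPCL1, IDH-VI and GLR1.4 the closest to overlap.

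Of the unnamed higher members, 253245_at had the largest difference (1.21 ± 0.11, or 2.31-fold). Its signals were 109, 123 and 113 in ptpkis2, 58.7, 39.6 and 43.9 in sex1-3, 57.9, 71.9 and 59.8 in sex4-3, and 53.4 and 46.3 in Col-WT, with 62.9 on Col-WT replicate 2. The next, 245956_s_at, had 1041, 1034 and 979 in ptpkis2, 368, 294 and 418 in sex1-3, 552, 505 and 667 in sex4-3, and 349 and 568 in Col-WT, with 9.46 on Col-WT replicate 2 (difference 1.19 ± 0.29). The ptpkis2 arrays of each were close together, and Col-WT replicate 2 went apart from the other Col-WT arrays only in the second.

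Among the 70 lower members, 41 are paired with 1 gene, 1 with a pair of genes and 28 are unnamed here (40%, beside 46.9% of the 7740). The named ones include short-chain dehydrogenases, a glutaredoxin, proteins of the DUF506 family, membrane carriers, kinases, the autophagy gene ATG8E and the wax repressor DEWAX. ATG8E was the only one with a symbol of its own in the symbol column, and AT1G35612 is annotated as a pseudogene.

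The largest difference of all members was in AT2G29670, a protein with tetratricopeptide repeats, with signals of 155, 185 and 179 in ptpkis2, 669, 776 and 711 in sex1-3, 413, 481 and 409 in sex4-3, and 518 and 573 in Col-WT, with 143 on Col-WT replicate 2. Its ptpkis2 mean was 3.16-fold lower than that of Col-WT (log2 -1.66 ± 0.13). The gap to the nearest of the arrays used from another genotype, 1.15, was the widest among the members. Col-WT replicate 2, which was not used, lay below all ptpkis2 arrays. The sex1-3 arrays were all above, and the sex4-3 arrays all below, the 2 Col-WT arrays used. Among members paired with a gene, AT4G28290 followed with 168, 89.6 and 122 in ptpkis2, 361, 398 and 429.9 in sex1-3, 302, 297 and 236 in sex4-3, and 358 and 279 in Col-WT, with 252 on Col-WT replicate 2 (difference -1.37 ± 0.40), and AT5G23340, a leucine-rich repeat protein, with 61.4, 85.1 and 98.3 in ptpkis2, 222, 246 and 182 in sex1-3, 178, 139 and 133 in sex4-3, and 166 and 231 in Col-WT, with 14.2 on Col-WT replicate 2 (-1.29 ± 0.34). In both the 3 ptpkis2 arrays were spread widely, and among the arrays used they did not reach those of the other genotypes. Col-WT replicate 2 lay above all ptpkis2 arrays in AT4G28290 but below all of them in AT5G23340.

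A pair of short-chain dehydrogenases of the tropinone reductase-like group were members. AT1G07440 had 195, 218 and 259 in ptpkis2, 444, 603 and 498 in sex1-3, 349, 411 and 349.9 in sex4-3, and 499 and 442 in Col-WT, with 191 on Col-WT replicate 2, a difference of -1.08 ± 0.18. AT2G29290 had 199, 245 and 259 in ptpkis2, 388, 467 and 458 in sex1-3, 458, 405 and 295 in sex4-3, and 488 and 387 in Col-WT, with 207 on Col-WT replicate 2, a difference of -0.90 ± 0.21. In both genes sex1-3 overlapped with Col-WT, and Col-WT replicate 2 fell in or below the ptpkis2 range. Other redox-related members were AT4G15690, a plant-type glutaredoxin, with 46.9, 53.0 and 38.2 in ptpkis2, 79.2, 105 and 85.8 in sex1-3, 89.6, 76.8 and 107 in sex4-3, and 66.1 and 136 in Col-WT, with 33.9 on Col-WT replicate 2, and AT5G58800, a quinone reductase picked after its values were seen (-0.84 ± 0.20, at 197 to 261 units in ptpkis2 and 391 and 454 in Col-WT, with 161 on Col-WT replicate 2). The 2 Col-WT arrays of the glutaredoxin differed more than those of any other lower member (by 1.04 on the log2 scale), so the size of its difference (-1.06 ± 0.47) is poorly set.

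The DUF506 proteins, a plant family whose members are little characterised, gave another pair. AT3G07350 had 49.1, 47.7 and 54.2 in ptpkis2, 98.5, 109.6 and 119 in sex1-3, 143, 86.9 and 135 in sex4-3, and 72.0 and 138 in Col-WT, with 90.0 on Col-WT replicate 2. AT2G38820 had 76.2, 72.0 and 68.3 in ptpkis2, 171, 164 and 171 in sex1-3, 206, 101 and 88.5 in sex4-3, and 132 and 144 in Col-WT, with 107 on Col-WT replicate 2. The ptpkis2 arrays were close together in both, at differences of -0.99 ± 0.39 and -0.93 ± 0.08, while 1 sex4-3 array of AT2G38820 was the highest of all arrays.

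Of the other 7 among the 15 largest differences paired with 1 gene, 3 have a known family. AT1G75800, a thaumatin-like protein, had 178, 228 and 253 in ptpkis2, 363, 409 and 418 in sex1-3, 341, 363 and 346 in sex4-3, and 369 and 520.3 in Col-WT, with 159 on Col-WT replicate 2 (-1.01 ± 0.29). AT3G13062, with a lipid-binding START domain, had 252, 313 and 311 in ptpkis2, 657, 692 and 690.1 in sex1-3, 347, 529.9 and 523 in sex4-3, and 516 and 689 in Col-WT, with 436 on Col-WT replicate 2 (-1.04 ± 0.22), and AT3G23880, an F-box protein, 35.9, 52.3 and 55.7 in ptpkis2, 84.9, 119 and 88.0 in sex1-3, 98.8, 128 and 83.3 in sex4-3, and 111 and 73.2 in Col-WT, with 93.4 on Col-WT replicate 2 (-0.94 ± 0.37). Among the other 8 arrays used, the nearest was a sex4-3 array in AT1G75800 and AT3G13062 and Col-WT replicate 3 in AT3G23880. In AT1G75800 Col-WT replicate 2 lay below all ptpkis2 arrays. No role is given here for the other 4. AT2G21185 differed by -0.99 ± 0.21, at 423 to 454 units in ptpkis2 and 1037 and 728 in Col-WT, with 506 on Col-WT replicate 2. For AT2G25735 the difference was -0.94 ± 0.29, at 41.7 to 62.4 units in ptpkis2 and 94.7 and 114 in Col-WT, with 147 on Col-WT replicate 2. AT3G15760 was at -0.93 ± 0.25, at 73.2 to 83.4 units in ptpkis2 and 121 and 179 in Col-WT, with 203 on Col-WT replicate 2. In these genes Col-WT replicate 2 lay above all ptpkis2 arrays. AT5G64880 was at -0.89 ± 0.08, at 83.6 to 87.7 units in ptpkis2 and 148 and 168 in Col-WT, with 75.4 on Col-WT replicate 2, so there Col-WT replicate 2 lay below all ptpkis2 arrays.

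ATG8E (AT2G45170), a ubiquitin-like protein that coats autophagosomes, had 258, 327 and 281 in ptpkis2, 522, 553 and 567 in sex1-3, 337, 459 and 502 in sex4-3, and 447 and 513 in Col-WT, with 162 on Col-WT replicate 2. The difference was -0.74 ± 0.16 (1.67-fold lower in ptpkis2), and 1 sex4-3 array lay just above the highest ptpkis2 array, at a gap of 0.04. The sex1-3 arrays were all above the Col-WT arrays, at a difference of means of 0.19, within the bound of 0.4. AT5G61590, listed under the name DEWAX, a transcription factor known to repress wax synthesis in the dark, had 407, 643 and 559 in ptpkis2, 807, 1208 and 881 in sex1-3, 664, 735 and 711 in sex4-3, and 1082 and 763 in Col-WT, with 386 on Col-WT replicate 2. Its ptpkis2 values were dispersed, and the highest nearly touched the lowest sex4-3 value (gap 0.05).

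**Figure D3:**
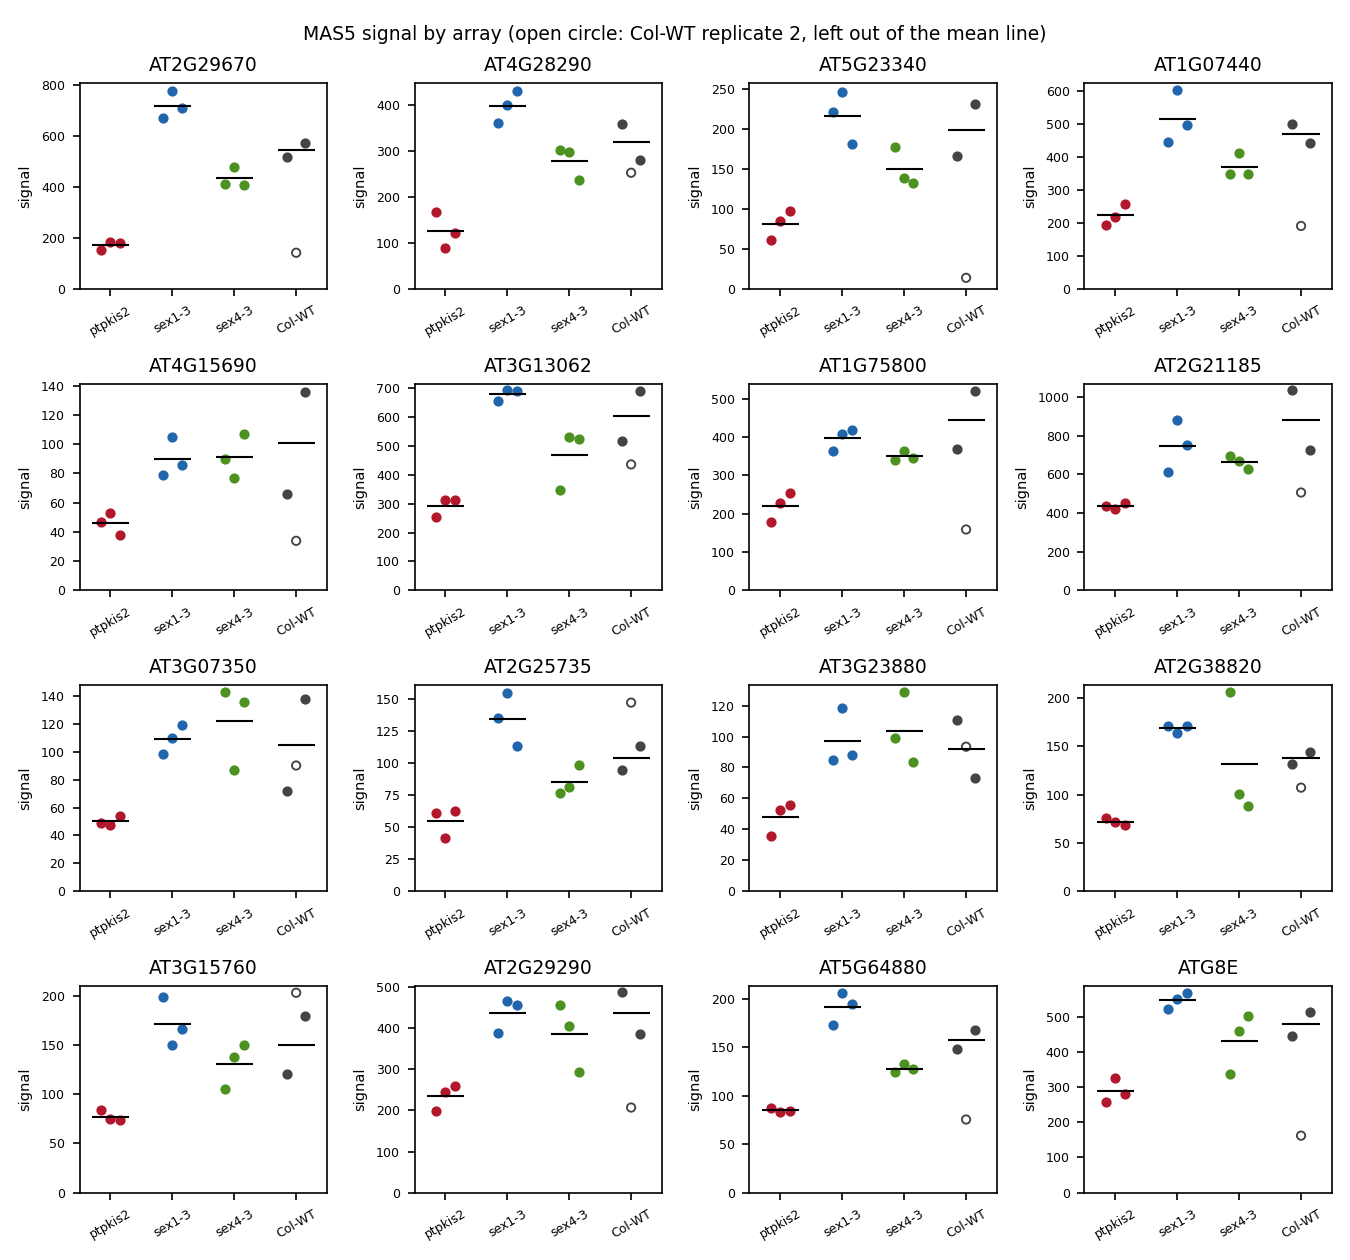
MAS5 signal (vertical axis, linear, from 0) by genotype (horizontal axis) for the 15 lower members with the largest difference that are paired with 1 gene, and ATG8E; each circle is an array, the line is the genotype mean, and the open circle is Col-WT replicate 2, which the mean leaves out. All filled ptpkis2 circles lie below the other filled circles, and the open circle lies at or below them in several panels, such as AT2G29670 and AT5G23340.

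Signalling and transport proteins among the lower members were picked from the list after their values were seen. AT1G13640, of the phosphatidylinositol 4-kinase gamma family, was at -0.82 ± 0.16, at 127 to 148 units in ptpkis2 and 262 and 213 in Col-WT, with 235 on Col-WT replicate 2. The protein kinase AT4G01330 was at -0.70 ± 0.18, at 80.3 to 107 units in ptpkis2 and 142 and 155 in Col-WT, with 123 on Col-WT replicate 2. AT1G72820, of the mitochondrial carrier family, was at -0.80 ± 0.17, at 119.5 to 154 units in ptpkis2 and 230.5 and 254 in Col-WT, with 217 on Col-WT replicate 2. In these genes Col-WT replicate 2 lay on the wild type side. The MATE-type exporter AT1G33110 was at -0.81 ± 0.12, at 272 to 329 units in ptpkis2 and 509 and 514 in Col-WT, with 244 on Col-WT replicate 2, so that array lay below all ptpkis2 arrays. The probe set shared by AT1G12390 and AT1G12340, cornichon-type cargo receptors of the secretory pathway, was at -0.76 ± 0.08. Its signals were 112, 126 and 115 in ptpkis2, 187, 232 and 187 in sex1-3, 168, 156 and 173 in sex4-3, and 193 and 204 in Col-WT, with 268 on Col-WT replicate 2, with the 3 ptpkis2 arrays close together and Col-WT replicate 2 the highest array. Of the unnamed lower members, 247029_at had the largest difference (-1.39 ± 0.38, at 25.9 to 46.1 units in ptpkis2 and 100.02 and 97.1 in Col-WT, with 107 on Col-WT replicate 2). The next, 254919_at, was at -1.25 ± 0.11, at 123 to 142 units in ptpkis2 and 294 and 327 in Col-WT, with 121 on Col-WT replicate 2, below all ptpkis2 arrays.

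Among the ptpkis2 arrays, replicate 1 was the most extreme more often for the lower members and none stood out for the higher. The highest value of a higher member was on replicate 1, 2 and 3 in 8, 9 and 8 cases, and the lowest value of a lower member in 34, 16 and 20. Median differences from Col-WT per ptpkis2 array were 0.85, 0.92 and 0.79 on the log2 scale for the higher members and -0.92, -0.77 and -0.82 for the lower. The same arrays had medians between -0.0045 and 0.0033 over all 7740 probe sets.

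Within the bound of 0.4, the differences of the other mutants from wild type were not evenly spread about 0. Among the 70 lower members, sex4-3 minus Col-WT was below 0 in 65 (median -0.22) and sex1-3 minus Col-WT was above 0 in 51 (median 0.13). Among the 25 higher members, sex4-3 minus Col-WT was above 0 in 20 (median 0.20) and sex1-3 minus Col-WT was below 0 in 21 (median -0.16). Over all 7740 probe sets the medians were -0.01 for sex4-3 and -0.02 for sex1-3. These comparisons share the Col-WT arrays, so signs in common between them have no weight of their own.

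The difference of sex4-3 and sex1-3 uses neither Col-WT nor ptpkis2 arrays. It was below 0 in 61 of the 70 lower members (median -0.35) and above 0 in 23 of the 25 higher members (median 0.32), against a median of 0.003 and 49.6% below 0 over the 7740 probe sets. The rule bounded both mutants around Col-WT, which limits the size of this difference but not its sign. It also required all sex1-3 and sex4-3 values to lie on the same side of the ptpkis2 values. These arrays thus served in choosing the members, and the 7740 probe sets were not chosen that way. How far the rule shifts these counts was not tested, so they stand as a description. Median differences from Col-WT over the lower members were 0.08, 0.23 and 0.08 on the sex1-3 arrays and -0.23, -0.20 and -0.24 on the sex4-3 arrays. Over the higher members they were -0.15, -0.31 and -0.09 in sex1-3 and 0.05, 0.21 and 0.42 in sex4-3.

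**Figure D4:**
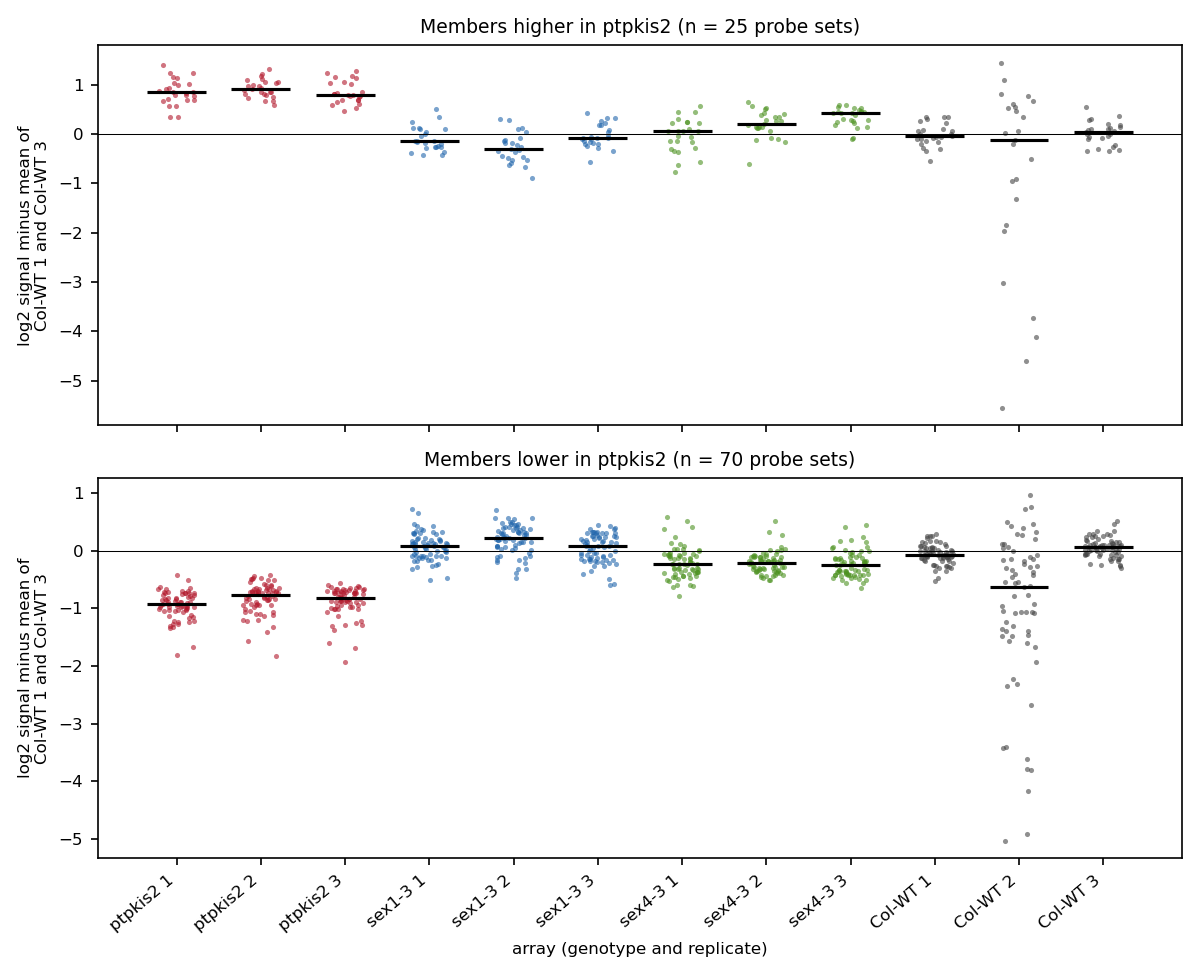
Log2 signal minus the mean of Col-WT replicates 1 and 3 (vertical axis) on each array (horizontal axis) for the 25 higher members (top) and the 70 lower members (bottom); each dot is a probe set and the black line its median on that array. The ptpkis2 medians are 0.79 to 0.92 above (top) and 0.77 to 0.92 below (bottom) wild type, and Col-WT replicate 2 spreads over several log2 units.

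Col-WT replicate 2 is the only array that the rule did not use. It lay on the wild type side of all ptpkis2 values in 20 of the 25 higher members, within their range in 4 and past it in 1. For the lower members it lay above all ptpkis2 values in 36 of 70, within their range in 4 and below all of them in 30. The same counts were not made over all 7740 probe sets, so nothing is read from them. Relative to the other Col-WT arrays it had a median of -0.38 on the log2 scale over the 7740 probe sets, -0.13 over the higher and -0.63 over the lower members. It was below their mean in 64.2% of the 7740, 52% of the higher and 78.6% of the lower members. With this array included, 24 of the 95 met the rule, 5 higher and 19 lower. The part of this array's general shift in these counts was not tested.

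The median of the mean log2 signal was 6.91 for the higher and 7.60 for the lower members, beside 7.41 for all 7740 probe sets. Of the 41 named lower members, 11, 9, 8, 8 and 5 were on chromosomes 1 to 5 (26.8, 22, 19.5, 19.5 and 12.2%), beside 25, 14.5, 20.7, 14.3 and 23.9% of the named probe sets of this signal level. Of the 10 named higher members 3, 1, 4, 1 and 0 were on these chromosomes and 1 was in the chloroplast genome. Neighbouring genes in the order of the RefSeq table (assembly TAIR10.1) were both lower members in 3 cases: AT1G75800 and AT1G75810 with no gene between them, AT4G28260 and AT4G28290 with 2, and AT3G07310 and AT3G07350 with 3, and none of these pairs overlap. Gene spans had a median of 1861 bases in the lower members and 2930.5 in the higher, against 2248 for all named probe sets of this level.

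No named member belonged to the 8 gene lists drawn up for the tissue and mutants. Few list genes had a named probe set, such as 7 of 35 for starch and maltose, 3 of 21 for the clock and 0 of 16 for chaperones. Members were 95 of the 7740 probe sets with a mean log2 of at least 6, so their absence from such short lists carries no weight. The lists are given for genes that are no members. The 43 unnamed members could not be matched to any list. In the ribosome biogenesis list, proteins that assemble ribosomes in the nucleolus, all 10 measured of 33 genes had values above 0 in ptpkis2 minus Col-WT (median 0.70, against 0.03 over all 13647 probe sets), under quantile normalization and median centring as well. Above 0 were 49.6% of the 7740 probe sets with a mean log2 of at least 6. Most of the 10 were dimmer than that, such as NOP5-2, BRX1-1 and WDR12 (mean log2 4.90, 4.49 and 5.11). Against the same Col-WT arrays, the list's median was 0.20 in sex4-3 and -0.14 in sex1-3. limma called 2 of the 10 higher, against 0.835% of all, and 0 lower. NOG1-1 (AT1G50920), a GTPase of the large subunit, rose by 0.81 ± 0.20 (SE, n = 3 and 2, limma adjusted p = 0.049), called in 6 of 22 alternatives (adjusted p 0.03 to 0.26). The probe set shared by NOP5-1 (AT5G27120), a core protein of small nucleolar particles, and another gene rose by 1.69 ± 0.39 (SE, limma adjusted p = 0.034), called in 11 of 21 (adjusted p 0.021 to 0.34). That probe set was dim, with 30.3, 39.1 and 33.5 units in ptpkis2, 27.9, 20.6 and 12.4 in sex1-3, 24.99, 22.3 and 25.3 in sex4-3, and 8.00 and 13.9 in Col-WT, with 26.1 on Col-WT replicate 2. Its difference from Col-WT was 0.87 in sex1-3 and 1.195 in sex4-3, and that of NOG1-1 was -0.08 in sex1-3 and 0.54 in sex4-3. Both calls were lost when any 1 of the Col-WT or ptpkis2 arrays was left out. Ribosomal protein probe sets with a mean log2 of at least 6, left out of the members, had a median of 0.33 over 152. The median over all 7740 probe sets of this level was -0.003. Of the 152, limma called 12 higher and 0 lower, against 0.835% and 1.87% of all 13647.

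The translation factor list had a median of 0.28 over 6 probe sets and 0 called by limma. In the list of sugar-repressed genes, limma called 2 of 11 measured of 34 genes lower, against 1.87% of all, and 0 higher, while 6 of the 11 had values above 0. The list's median was 0.03, -0.01 after quantile normalization and -0.05 after median centring. MCCA (AT1G03090), of leucine breakdown, fell by 1.01 ± 0.19 (SE, limma adjusted p = 0.00996), and AKINBETA1 (AT5G21170), a subunit of the kinase SnRK1, fell by 1.17 ± 0.13 (SE, limma adjusted p = 1.45e-04). Neither is a member, since in sex1-3 they were at 1.68 and 1.38 against Col-WT. Of 6 kept starch and maltose genes limma called 1 lower (1.87% of all). QQS (AT3G30720), an orphan gene that affects leaf starch, fell by 1.26 ± 0.22 (SE, limma adjusted p = 0.00678), with sex1-3 at -3.15 and sex4-3 at -0.98. MCCA and QQS lost the call without Col-WT replicate 3 and with all 12 arrays (adjusted p = 0.057 and 0.27). PWD, DPE1, AMY1, APL3 and SBE2.2, enzymes that phosphorylate, rearrange, cut and build starch, had -0.04, -0.06, -0.02, 0.13 and -0.40 without passing. The clock, photosynthesis and defence lists had 1 kept gene each, COR27 (0.29), RCA (0.24) and PDF1.2 (0.00), none called, and no chaperone on its list was measured under a name.

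Which probe sets met the rule depended on each array. Leaving out each of the 11 arrays in turn, quantile normalization, median centring and a floor for low signals made 14 settings, under all of which 10 members still met the rule, 2 higher and 8 lower. The higher ones were AT3G07090 and AT4G16660, and the named lower ones were AT2G29290, AT5G58800, AT1G33110 and the probe set of AT1G12390 and AT1G12340. None of these settings used Col-WT replicate 2. That array lay within the ptpkis2 range in AT3G07090 and AT2G29290, and below all ptpkis2 arrays in AT5G58800 and AT1G33110. With it, these genes lack the separation that the rule asks for. In AT4G16660 and the shared probe set it lay on the wild type side. Without Col-WT replicate 1, 44 of the 95 met the rule, 11 higher and 33 lower, and without Col-WT replicate 3, 54 did, 15 higher and 39 lower. Without any 1 of the other arrays, 80 to 92 did.

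**Figure D5:**
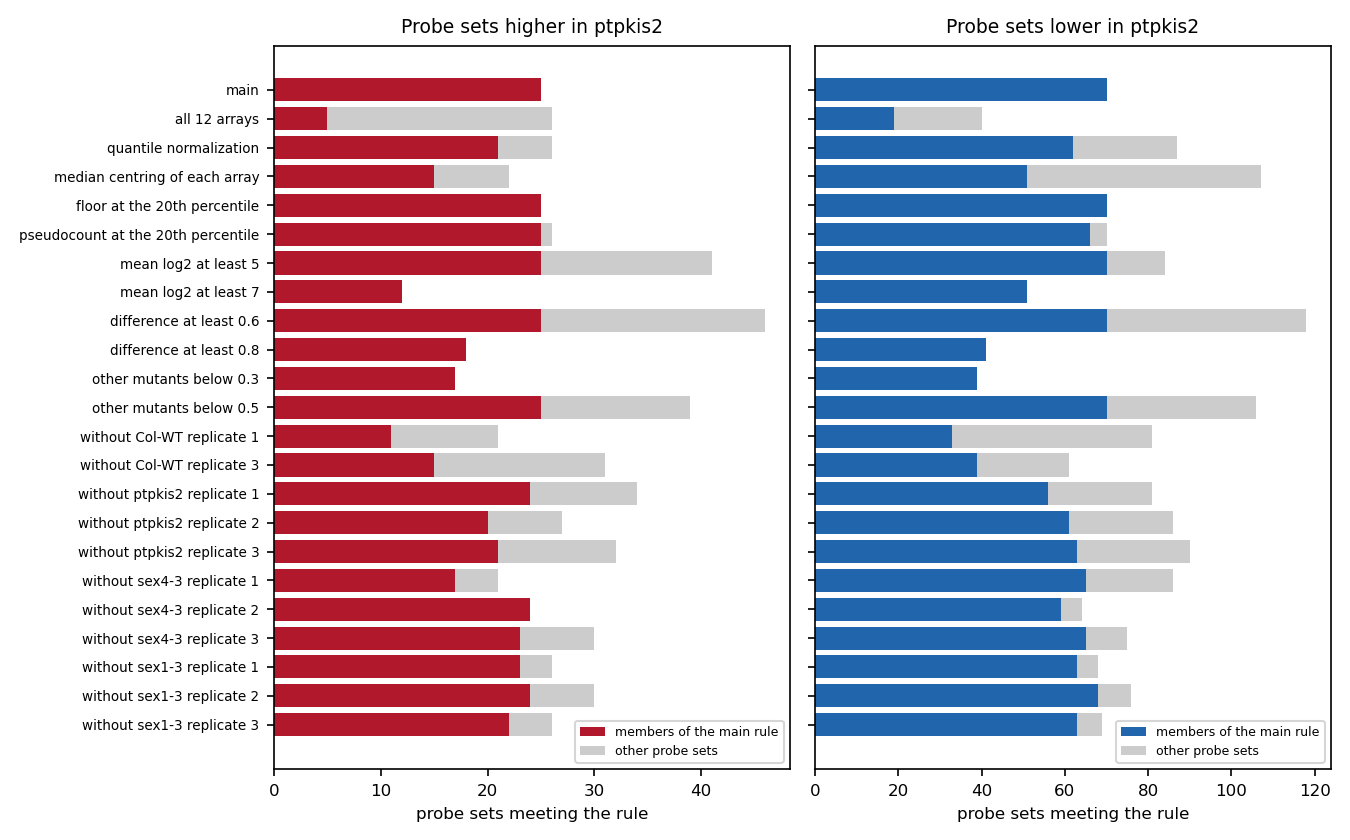
Number of probe sets that meet the rule (horizontal axis) under each setting (vertical axis), higher in ptpkis2 (left) and lower (right). The coloured part of a bar counts members of the main rule and the grey part other probe sets; the coloured part is shortest with all 12 arrays (5 and 19) and without Col-WT replicate 1 (11 and 33).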

How the data were processed

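Leaf RNA of 4 genotypes was hybridised to 12 single-colour ATH1 arrays. The deposited values are MAS5 signal intensities on a linear scale, made by the authors with MAS5 and GCOS per the submitters' processing notes (the notes used here name no version and no scaling target). The values were taken to log2 without further normalization, and Col-WT replicate 2 was left out, which leaves 11 arrays. The members follow the rule in the report. The 40% of probe sets with the lowest mean were dropped, and the other 13647 were fitted with limma 3.58.1 in R 4.3.3 (trend, 7 residual degrees of freedom, all genotypes), with Benjamini-Hochberg adjustment at 0.05. The code of the fit and the rule was run on simulated data with independent noise for each probe set and array. Those data hold no effects shared across an array, so nothing is read from them about these arrays. The number of arrays limits the precision. Alternatives changed the arrays, scaling, floor, thresholds and fit. Members and gene lists were chosen with earlier results of these data known, and the ribosomal protein loci come from general knowledge. The text names the members with the largest differences (up to 15 in each direction), those with a symbol, called list genes (up to 3 per list) and measured starch genes; other members were named after their values were seen. Gene names come from the platform annotation and the RefSeq table of TAIR10.1, and 43 members have none there.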

Additional observations from a re-analysis of the deposited data

Results flagged for a closer look

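The Affymetrix control probe sets, which no comparison uses, had a median ratio to the other arrays of 12.7 on Col-WT replicate 2 (64 probe sets), against 0.58 to 1.17 on each of the other 11 arrays. This is the array that the rule for the 95 members leaves out. The cause was not tested.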

How the results depend on the processing

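Among the alternatives run, the count of members (95, with 25 higher and 70 lower) moved by more than 1.5 times as follows. It was 63 in all and 12 higher at a mean log2 of at least 7, and 41 higher at a mean of at least 5. It was 164 (46 higher, 118 lower) at a difference of at least 0.6, and 59 in all with 41 lower at 0.8. With the other mutants within 0.3 it was 56 in all with 39 lower, and within 0.5 it was 145 (39 higher, 106 lower). The lower members numbered 40 with all 12 arrays and 107 after median centring. Leaving out each array gave 88 to 122 in all, 21 to 34 higher and 61 to 90 lower. limma's 369 calls became 36 with all 12 arrays, 185 without the trend, and 151 (without Col-WT replicate 3) to 472 (without sex4-3 replicate 1) when an array was left out; without ptpkis2 replicates 1, 2 and 3 they were 196, 188 and 179. Lower calls were 69.1% of the calls, 51% without Col-WT replicate 3 (74 higher, 77 lower), 62.3% without Col-WT replicate 1, 60.4% with the ptpkis2 and Col-WT arrays alone, and 81.8% after median centring, under which the median over the 13647 probe sets was -0.05, against 0.03. With all 12 arrays 8 of the 70 lower and 0 of the 25 higher members changed sign, of which 3 are unnamed (0.29 to 0.87) and 5 named: AT5G11070 (0.81), AT1G75810 (0.44), AT1G68440 (0.60), AT1G35612 (0.15) and AT1G66130 (0.42); the cause was not tested. Same-numbered samples deviated together at over 0.1 in 3 of 15 pairs (-0.17 to 0.29). At 2 or 3 arrays per genotype, these values cannot settle whether the numbers pair the samples. limma with the replicate block called 343, of which 301 were shared. Signal over background limits the members near the mean of 6.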
